A study of Mus musculus with 12 samples.

Results

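The genes described here are the 9 genes of the creatine and calcium cycles that can spend ATP in brown adipose tissue (BAT) without uncoupling protein 1 (*Ucp1*). The set was chosen with earlier results of these data known, by pathway and not by a threshold on a measured value, and its members were found by symbol in a table of 25124 genes. The creatine arm holds 6 members, namely *Gatm* and *Gamt*, which encode the synthesis enzymes, *Slc6a8*, the transporter, *Ckb* and *Ckmt2*, which encode kinases, and *Alpl*, a phosphatase. The 3 members of the calcium arm are *Atp2a2*, a calcium pump, *Ryr2*, a calcium release channel, and *Sln*, a peptide that acts on the pump.

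In the creatine cycle a kinase moves phosphate from ATP to creatine, and hydrolysis of the phosphocreatine returns creatine for another round, so that ATP is spent and heat is released. In the calcium cycle the sarco/endoplasmic reticulum ATPase (SERCA) pumps calcium into the endoplasmic reticulum (ER) and release channels let it out again. Both cycles are known from brown and beige fat as routes of heat production that do not need *Ucp1*, the proton channel of the classical route.

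Interscapular BAT of 12 male mice on a C57B/6J background, 10 weeks of age, was sequenced as 1 library each, with 3 in each of 4 groups. The libraries of a group were taken as separate mice, which the labels do not state, so p-values measure the spread between these samples. WT littermates and *Txnip*-/- mice, which lack thioredoxin-interacting protein in the whole body, were held for 1 week at 23 °C (room temperature, RT) or at 30 °C (thermoneutrality, TN, where mice need no extra heat). Groups are named by temperature and then genotype (RT WT, TN *Txnip*-/-), and the comparison asks how these genes stand in BAT with and without *Txnip* at each temperature. Because the deletion is in every cell, an effect of the genotype in the BAT cannot be told apart from one that reached it from other organs, and each library holds every cell type of the dissected tissue.

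Values are TPM, reads on a transcript scaled by its length and by the total of the library, so that levels can be compared between genes. Libraries held 29.93 to 47.44 in units of 1e6 reads, and since TPM give no count per gene the depth behind a single value is unknown. *Txnip* was at 564 to 694 TPM in RT WT against 24.8 to 35.4 in RT *Txnip*-/-, and at 1072 to 1238 in TN WT against 10.5 to 14.4 in TN *Txnip*-/-, as the labels say. The tissue carried its defining marker, with *Ucp1* at 2527 to 4366 TPM in the 6 RT libraries and 154 to 1136 in the 6 TN libraries. A gene was called where its log2 fold change was beyond 0.32 in either direction with a Benjamini-Hochberg adjusted p under 0.05 in limma on log2(TPM + 1), and fold changes below are on this log2 scale, which understates changes of low genes. An exact permutation test of 3 libraries against 3 cannot give a p below 0.1. Whether the temperature groups were handled on different days is not given in the sources used here, so TN and RT also differ in anything done per temperature.

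Of the 9 members, 6 passed the filter of a mean of 1 TPM, and *Ckmt2*, *Ryr2* and *Sln* did not. Calls among them were more frequent with housing temperature than with genotype, as they were among all tested genes. The genotype fits used 6 libraries and the temperature fits 12. With 12 libraries in the genotype fits, 0 members were called at RT and *Ckb* alone at TN. In WT, *Gamt*, *Slc6a8* and *Ckb* rose and *Atp2a2* fell from RT to TN, so 4 of the 6 tested members were called, with 37.8% of all tested genes called in that comparison (31.4% higher and 6.39% lower). In *Txnip*-/- mice, *Gatm*, *Gamt* and *Slc6a8* rose and *Atp2a2* fell, again 4 of the 6 tested, against 39.2% of all tested genes (30.9% higher and 8.27% lower). Between the genotypes, only *Gatm* was called at TN, where 8.66% of all tested genes were called (6.49% higher and 2.17% lower). No member was called by limma at RT, where 1.49% of all tested genes were (0.760% higher and 0.726% lower). There 1 member, *Ckb*, had an unadjusted p under 0.05, as did 1921 of 11980 tested genes. At TN *Gatm*, *Ckb* and *Atp2a2* did, as did 3306 of 12891. The median fold change over the 6 tested members was -0.12 at RT and 0.12 at TN for genotype, beside 0.03 and 0.01 over all tested genes, and 0.54 in WT and 0.58 in *Txnip*-/- for temperature, beside 0.18 and 0.15. Cell type markers moved with temperature too, with medians in WT and *Txnip*-/- of 0.75 and 1.59 for fibroblast and 1.10 and 1.39 for macrophage markers. They were 0.43 and 0.60 for endothelial and 0.15 and 0.71 for Schwann cell and glia markers. For brown adipocyte markers they were -0.66 and -1.64, and for general adipocyte markers -0.05 and -0.09. The part of these cell types in the changes of the members was not tested.

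**Figure D1:**
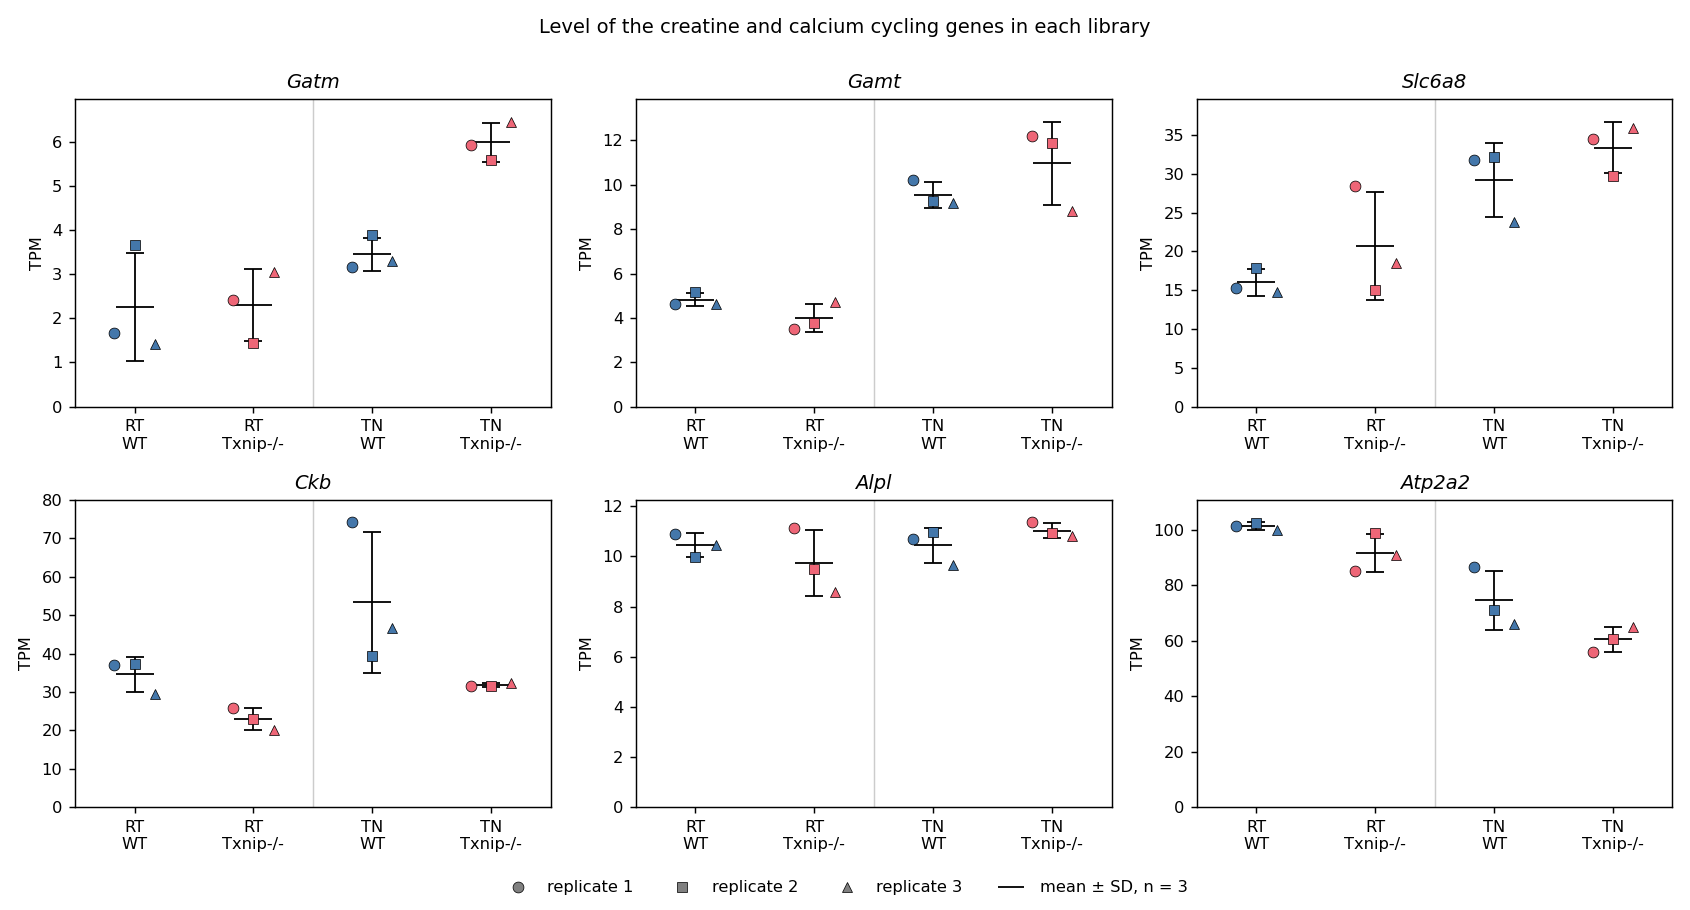
Level in TPM (vertical axes, each from 0) of the 6 members above the filter in each of the 12 libraries, by group, with WT in blue, Txnip-/- in red and the mean ± SD of 3 libraries as black bars. By mean, *Gatm*, *Gamt* and *Slc6a8* are higher at TN than at RT in both genotypes, *Atp2a2* is lower, and *Ckb* is lower in Txnip-/- than in WT at both temperatures.

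In level, *Atp2a2* stood first of the 9 in every group by mean, between 60.6 and 101 TPM. In RT WT it was followed by *Ckb* (34.5 TPM), *Slc6a8* (16.0), *Alpl* (10.5), *Gamt* (4.81), *Gatm* (2.25), *Ryr2* (0.137) and *Ckmt2* (0.0103), and apart from *Ckmt2* and *Sln*, whose values overlapped, no neighbours in this order did. In RT *Txnip*-/- the libraries of *Ckb* and *Slc6a8* overlapped, at 22.9 and 20.7 TPM. In TN WT *Atp2a2* and *Ckb* overlapped, and *Alpl* and *Gamt* did so at both TN genotypes. In TN *Txnip*-/- *Slc6a8* (33.4 TPM) and *Ckb* (31.8 TPM) overlapped.

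The promoters of 3 genes are shown because their genes differ in pattern: *Gatm*, called between the genotypes at TN, *Gamt*, with the largest change with temperature of the members, and *Ckb*, lower in *Txnip*-/- at both temperatures. Each window runs from 250 bases before to 50 bases after the transcription start, from RefSeq on GRCm38.p6, on the minus strand, and is written 5′ to 3′. Capitals mark the TATA box TATAAA, the CCAAT box CCAAT and the GC box GGGCGG, each searched on both strands, so that ATTGG and CCGCCC mark the other strand. The windows are chr2:122611228-122611527 for *Gatm*, chr10:80260963-80261262 for *Gamt* and chr12:111672289-111672588 for *Ckb*.
Gatm: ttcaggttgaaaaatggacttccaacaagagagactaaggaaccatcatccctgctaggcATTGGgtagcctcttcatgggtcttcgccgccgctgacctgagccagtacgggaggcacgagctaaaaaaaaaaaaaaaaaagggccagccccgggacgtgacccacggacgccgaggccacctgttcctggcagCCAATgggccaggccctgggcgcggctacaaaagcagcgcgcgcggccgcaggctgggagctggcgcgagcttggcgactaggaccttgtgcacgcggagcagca
Gamt: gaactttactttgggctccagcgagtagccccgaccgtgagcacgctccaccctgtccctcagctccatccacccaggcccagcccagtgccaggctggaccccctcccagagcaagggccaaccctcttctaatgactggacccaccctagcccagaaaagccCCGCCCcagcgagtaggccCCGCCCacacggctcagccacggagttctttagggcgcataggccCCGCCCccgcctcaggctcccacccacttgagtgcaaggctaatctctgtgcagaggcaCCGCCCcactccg
Ckb: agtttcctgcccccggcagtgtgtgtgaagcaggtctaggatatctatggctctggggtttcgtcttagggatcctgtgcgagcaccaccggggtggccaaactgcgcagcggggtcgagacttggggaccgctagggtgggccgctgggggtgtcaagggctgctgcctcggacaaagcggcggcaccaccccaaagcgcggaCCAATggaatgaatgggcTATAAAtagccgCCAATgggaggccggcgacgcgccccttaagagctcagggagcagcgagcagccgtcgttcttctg

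The *Ckb* window holds a TATA box starting 28 bases before the start, with CCAAT boxes 46 and 16 bases before it. The *Gatm* window holds a CCAAT box at 55 bases before the start and its reverse at 190, and no TATA box. The *Gamt* window holds neither but has 4 GC boxes, at 86, 67 and 22 bases before and 37 after the start. Of all 32851 promoter windows in the table, 13.62% hold the TATA box, 37.41% the CCAAT box and 35.66% the GC box. The motif AAGGTCA, a half-site of estrogen-related receptors, the cAMP response element TGACGTCA and the E-box CACGTG, held by 4.718%, 1.79% and 7.15% of windows, were in 0 of the 6 members with a promoter in the table. These motifs were chosen after the windows had been seen, and a match describes letters, not binding. *Slc6a8*, *Atp2a2* and *Sln* had no entry.

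*Gatm* (chr2:122594473-122611277, mm10, minus strand) encodes glycine amidinotransferase, the mitochondrial enzyme of the first and rate-limiting step of creatine synthesis. Its level was 3.17, 3.88 and 3.29 TPM in TN WT and 5.93, 5.57 and 6.44 in TN *Txnip*-/-, so every TN *Txnip*-/- library lay above every TN WT library. *Gatm* rose 1.74-fold in mean TPM, a log2 change of 0.65 (SE 0.10, 95% confidence interval 0.43 to 0.87, n = 3 per group, limma adjusted p = 0.00871). Groups that do not overlap in this direction were found for 17.7% of all tested genes at TN. The call was lost when all 12 libraries shared 1 estimate of the spread, with the same change and an adjusted p of 0.0928.

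At RT the *Gatm* libraries scattered more than the genotypes differed. They stood at 1.67, 3.67 and 1.42 TPM in RT WT and 2.41, 1.44 and 3.05 in RT *Txnip*-/-, with a log2 change of 0.05 (95% confidence interval -0.61 to 0.72, limma adjusted p = 0.951) whose sign turned without RT WT replicate 1 (-0.06), RT WT replicate 3 (-0.13) or RT *Txnip*-/- replicate 3 (-0.11). From RT to TN, *Gatm* rose by 1.11 in *Txnip*-/- (95% confidence interval 0.61 to 1.61, limma adjusted p = 0.00196), with no overlap of the libraries. The same lack of overlap, in either direction, held for 61.1% of all tested genes. In WT the change was 0.51 (95% confidence interval 0.01 to 1.01, limma adjusted p = 0.0833). It passed the test without RT WT replicate 2 (0.80, adjusted p = 0.00586) and was smaller without RT WT replicate 3 (0.33, adjusted p = 0.283) and with median centring (0.33, adjusted p = 0.243). The difference of the genotype effects between the temperatures was 0.60 (95% confidence interval -0.11 to 1.31) and did not pass the test (interaction, limma adjusted p = 0.467), at 0.308 without RT WT replicate 2 and 0.396 without RT *Txnip*-/- replicate 2.

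Markers of other cell types ran with *Gatm* in part and apart from it in part. The sum of 5 Schwann cell and glia markers was 72.4, 111 and 62.7 TPM in RT WT and 77.2, 61.7 and 77.9 in RT *Txnip*-/-, highest in RT WT replicate 2, which also had the most *Gatm* of the RT libraries. At TN the sum was 80.9 to 91.7 TPM in WT and 102 to 135 in *Txnip*-/-, and none of the 5 markers was called between the genotypes at either temperature by limma, with an unadjusted p under 0.05 for 0 at RT and 2 at TN. *Cnp*, an enzyme of myelinating glia that is not among the 5, is named because its levels ran most like those of *Gatm* over the same libraries. Its rise in TN *Txnip*-/- (14.03 ± 1.18 against 9.61 ± 0.265 TPM, SD, n = 3, log2 change 0.50, limma adjusted p = 0.0106) repeats that selection and is not read as support. All 7 macrophage markers and all 6 fibroblast markers rose in TN *Txnip*-/-, with sums of 112 to 201 against 326 to 449 TPM and of 345 to 470 against 825 to 833 TPM. At RT, where *Gatm* was not called, the macrophage sum was 49.1 to 53.8 TPM in WT and 83.0 to 146.5 in *Txnip*-/-, with *Mrc1* and *Lyz2* called. RT WT replicate 2, with the most *Gatm* at RT, stood at 50.3 in that sum. The fibroblast sum at RT was 203 to 258 TPM in WT and 253 to 308 in *Txnip*-/-. Of the 6 endothelial markers, 0 were called between the genotypes at either temperature. The part of these cell types in the *Gatm* result was not tested, and in bulk tissue a change in the number of cells of a type and in RNA per cell cannot be told apart.

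**Figure D2:**
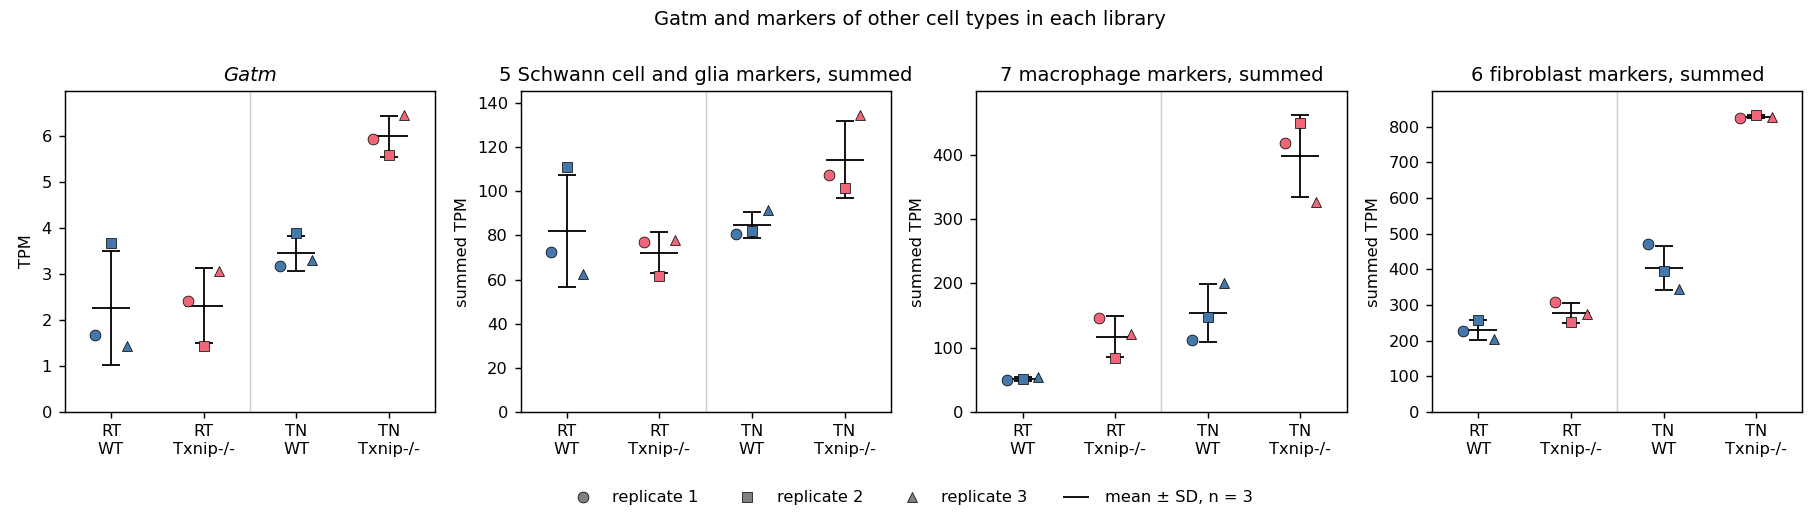
Level of *Gatm* (TPM) and summed level of 5 Schwann cell and glia, 7 macrophage and 6 fibroblast markers (TPM) in each of the 12 libraries, with mean ± SD of 3 per group as black bars and vertical axes from 0. The macrophage and fibroblast sums are highest in the 3 TN Txnip-/- libraries, as *Gatm* is, and the glial sum of RT WT replicate 2 stands above the other RT libraries.

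*Gamt* (chr10:80258151-80261012, minus strand) encodes guanidinoacetate methyltransferase, which completes creatine with a methyl group from S-adenosylmethionine. It was at 4.64, 5.15 and 4.64 TPM in RT WT and at 10.2, 9.28 and 9.16 in TN WT. In *Txnip*-/- it was at 3.51, 3.77 and 4.73 TPM at RT and at 12.2, 11.9 and 8.83 at TN. All 6 TN libraries lay above all 6 RT libraries, and libraries apart between the temperatures, in either direction, were found for 57.5% of all tested genes in WT and 61.1% in *Txnip*-/-. *Gamt* rose 1.99-fold in WT (log2 change 0.86, SE 0.12, limma adjusted p = 0.000291) and 2.74-fold in *Txnip*-/- (1.255, SE 0.12, adjusted p = 2.16e-05).

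Between the genotypes the *Gamt* libraries overlapped at both temperatures. The log2 change was -0.22 at RT (95% confidence interval -0.49 to 0.04, limma adjusted p = 0.395) and 0.17 at TN (-0.11 to 0.45, adjusted p = 0.433), where it was 0.094 without TN *Txnip*-/- replicate 1 and 0.306 without TN *Txnip*-/- replicate 3. The difference of these was 0.39 (0.02 to 0.77), with an unadjusted p of 0.0407 and an adjusted p of 0.369 in limma's interaction term.

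*Slc6a8* (chrX:73673133-73682500, plus strand) encodes the sodium- and chloride-dependent transporter that brings creatine into the cell. In WT it was at 15.4, 17.9 and 14.7 TPM at RT and 31.8, 32.1 and 23.8 at TN. In *Txnip*-/- it was at 28.5, 15.1 and 18.6 TPM at RT and 34.6, 29.7 and 36.0 at TN, so the temperatures did not overlap in either genotype, and RT *Txnip*-/- replicate 1 stood above TN WT replicate 3. Such a separation, in either direction, was found for 57.5% of all tested genes in WT and 61.1% in *Txnip*-/-. *Slc6a8* rose 1.83-fold with TN in WT (log2 change 0.82, SE 0.19, limma adjusted p = 0.00432) and 1.61-fold in *Txnip*-/- (0.71, SE 0.19, adjusted p = 0.00878). The genotypes overlapped at both temperatures, with log2 changes of 0.31 at RT (95% confidence interval -0.18 to 0.80, limma adjusted p = 0.522) and 0.20 at TN (-0.10 to 0.49, adjusted p = 0.393). The RT value was 0.066 without RT *Txnip*-/- replicate 1 and 0.503 without RT *Txnip*-/- replicate 2, and the TN value was 0.058 without TN WT replicate 3.

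*Ckb* (chr12:111669355-111672338, minus strand) encodes the brain-type creatine kinase, which charges creatine with phosphate. It was at 37.0, 37.2 and 29.4 TPM in RT WT and 25.7, 23.0 and 20.0 in RT *Txnip*-/-. At TN it was at 74.2, 39.3 and 46.7 TPM in WT and 31.5, 31.6 and 32.3 in *Txnip*-/-. At each temperature the highest *Txnip*-/- library was under the lowest WT library, a pattern that 7.58% of all tested genes had at RT and 13.4% at TN. TN WT replicate 1 stood far above the other TN libraries, while the 3 TN *Txnip*-/- libraries lay within 1 TPM of one another.

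Neither genotype difference of *Ckb* was called. At RT the log2 change was -0.57 (SE 0.12, 95% confidence interval -0.86 to -0.28, limma adjusted p = 0.0756), and it passed the threshold without RT WT replicate 3 (-0.68, adjusted p = 0.0449) and on the authors' log-scale values (-0.39, adjusted p = 0.0475). At TN the log2 change was -0.68 (SE 0.20, 95% confidence interval -1.14 to -0.22, limma adjusted p = 0.0734). It passed without TN WT replicate 1 (-0.42, adjusted p = 0.0409), without TN WT replicate 2 (-0.87, adjusted p = 0.0367) and with all 12 libraries in 1 fit (adjusted p = 0.0362). The genotype effects differed between the temperatures by -0.11 (95% confidence interval -0.68 to 0.46, adjusted p = 0.890), a value that turned to 0.15 without TN WT replicate 1.

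From RT to TN *Ckb* rose 1.55-fold in WT (log2 change 0.57, SE 0.19, limma adjusted p = 0.0237). This call was lost without RT WT replicate 3 (0.46, adjusted p = 0.0888), without TN WT replicate 1 (0.31, adjusted p = 0.0617), in a fit on the 6 WT libraries (0.0648), with upper-quartile normalization (0.0557) and with median centring (0.114). In *Txnip*-/- the change was 0.46 (SE 0.19, limma adjusted p = 0.0551), with no overlap, as for 61.1% of all tested genes in either direction. The change was 0.27 with median centring (adjusted p = 0.242). It passed the threshold without RT *Txnip*-/- replicate 1 (0.55, adjusted p = 0.0486), in a fit on the 6 *Txnip*-/- libraries (adjusted p = 0.00463) and, through the shared spread alone, without TN WT replicate 1 (0.00565) or replicate 2 (0.0289).

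*Ckmt2* (chr13:91853387-91876885, minus strand) encodes the sarcomeric mitochondrial creatine kinase, which is known from heart and skeletal muscle. Its level was at or near 0 in all libraries. It was 0, 0.031 and 0 TPM in RT WT and 0.164, 0.072 and 0.159 in RT *Txnip*-/-, and 0.027, 0.182 and 0 in TN WT and 0, 0.099 and 0.038 in TN *Txnip*-/-. The RT groups did not overlap and the TN groups did, but the gene lay under the filter. Tested without the filter, its log2 change at RT was 0.16 (SE 0.04, limma adjusted p = 0.168). Of its exon bases, 84 overlap *1700119I11Rik* on the opposite strand, and whether the counting used strand is not given in the sources used here.

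The libraries with the most *Ckmt2* also held skeletal muscle transcripts. *Ckm*, the muscle creatine kinase, was at 0.032 to 0.159 TPM in RT WT and 3.75 to 9.32 in RT *Txnip*-/-, and at 2.90 in TN WT replicate 2 and 2.33 in TN *Txnip*-/- replicate 2 against 0.144 to 0.180 in the other 4 TN libraries. Of the 12 fast muscle markers, 6, among them *Acta1*, the skeletal muscle actin, and *Myh4*, a fast myosin heavy chain, had means of 0.0467 to 0.468 TPM in RT WT and 4.07 to 6.595 in RT *Txnip*-/-, and they passed the filter at RT only through RT *Txnip*-/-, so that their calls as higher there are not read as support. *Mylpf*, a fast myosin light chain above the filter in both groups, rose from 1.91 to 5.90 TPM (log2 change 1.21, limma adjusted p = 0.0404). The sum of 11 of them was 3.05 to 3.64 TPM in RT WT and 23.6 to 57.9 in RT *Txnip*-/-, and 20.0 and 19.8 in the replicates 2 of TN WT and TN *Txnip*-/- against 4.17 to 5.37 in the other 4. The last of the 12, *Myl1*, is left out of that sum, a choice made after its values were seen, since at 45.0 TPM or more in every library it outweighed the others. *Myl1* went the other way, with means of 74.7 TPM in RT WT and 55.7 in RT *Txnip*-/- (log2 change -0.42, limma adjusted p = 0.0537, no overlap), and it fell from 73.1 TPM in TN WT to 47.7 in TN *Txnip*-/- (-0.61, adjusted p = 0.00351). With *Myl1* the sum of all 12 overlapped at RT (76.2 to 79.8 TPM in WT and 76.4 to 120.3 in *Txnip*-/-) and was lower in TN *Txnip*-/- (50.2 to 67.8) than in TN WT (78.1 to 92.1). The 9 markers of heart and slow muscle summed to 2.79 to 2.99 TPM in RT WT and 3.65 to 4.99 in RT *Txnip*-/-. At TN they summed to 1.97 to 4.07 TPM in WT and 5.28 to 6.16 in *Txnip*-/-, where *Ckmt2* overlapped. The part of muscle in the *Ckmt2* values was not tested.

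**Figure D3:**
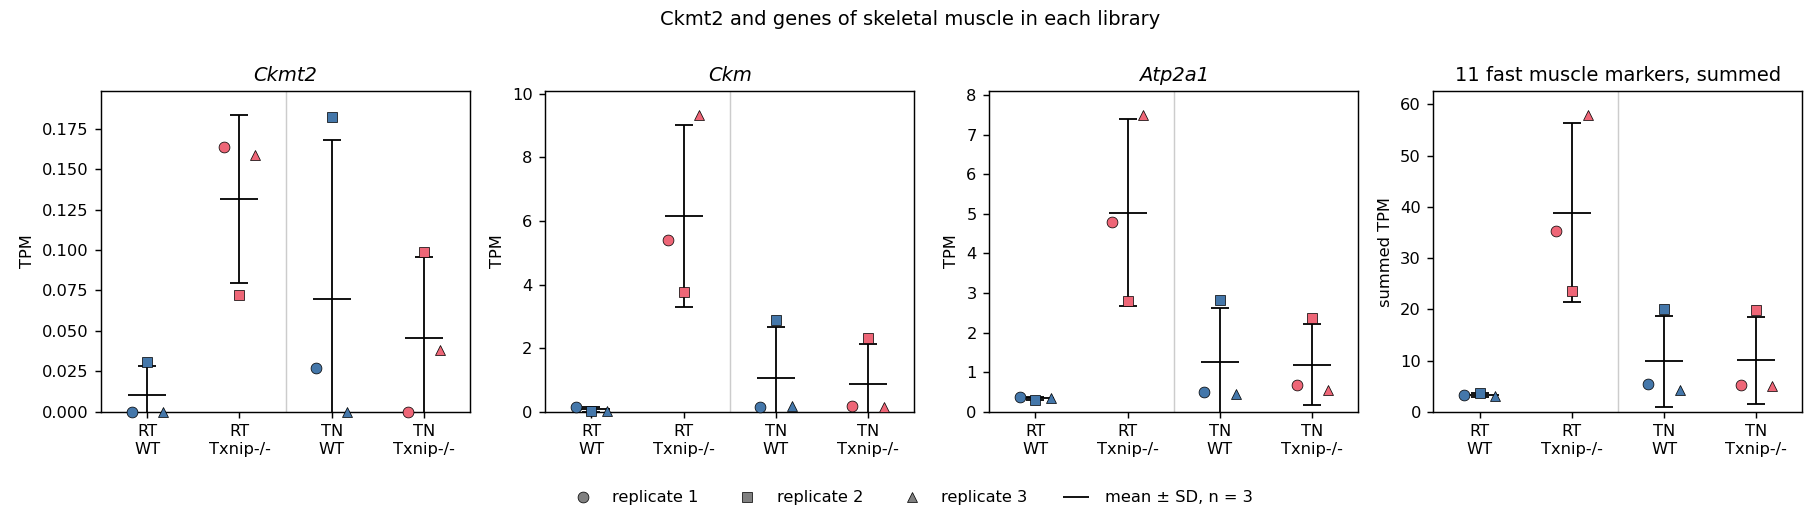
Level of *Ckmt2*, *Ckm* and *Atp2a1* (TPM) and summed level of 11 fast muscle markers (TPM) in each of the 12 libraries, with mean ± SD of 3 per group as black bars (lower ends cut at 0) and vertical axes from 0. *Ckm*, *Atp2a1* and the marker sum are high in the same 5 libraries, the 3 of RT Txnip-/- and replicate 2 of each TN group.

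Among the creatine kinases, *Ckb* made up 99.1% to 99.4% of the summed TPM in RT WT, 91.9% to 99.3% in TN WT and 91.8% to 98.6% in TN *Txnip*-/-. In RT *Txnip*-/- its share was 67.3% to 84.5%, where *Ckm* supplied most of the rest.

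*Alpl* (chr4:137741731-137796384, minus strand) encodes the tissue-nonspecific alkaline phosphatase, which can hydrolyse phosphocreatine. It was at 10.9, 9.97 and 10.5 TPM in RT WT, 11.1, 9.50 and 8.57 in RT *Txnip*-/-, 10.7, 10.98 and 9.65 in TN WT and 11.4, 10.9 and 10.8 in TN *Txnip*-/-. The libraries overlapped in all 4 comparisons. Its log2 change was -0.10 (95% confidence interval -0.34 to 0.14) for genotype at RT, 0.07 (-0.10 to 0.24) at TN, -0.003 (-0.19 to 0.19) for temperature in WT and 0.17 (-0.02 to 0.36) in *Txnip*-/-, with limma adjusted p-values from 0.121 to 0.982. With 1 library left out the genotype values ran from -0.191 (without RT *Txnip*-/- replicate 1) to -0.020 (without RT *Txnip*-/- replicate 3) at RT and were as low as 0.024 (without TN WT replicate 3) at TN, and the change with temperature in *Txnip*-/- was 0.091 without RT *Txnip*-/- replicate 3 and 0.263 without RT *Txnip*-/- replicate 1 (limma adjusted p = 0.0186, under the minimum fold).

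*Atp2a2* (chr5:122456324-122502225, minus strand) encodes SERCA2, the calcium pump of the ER membrane. It was at 101.3, 102.6 and 99.8 TPM in RT WT and 85.1, 98.8 and 90.8 in RT *Txnip*-/-, and at 86.6, 71.0 and 65.9 in TN WT and 56.0, 60.8 and 65.0 in TN *Txnip*-/-. Within each genotype every TN library lay below every RT library. Libraries apart between the temperatures, in either direction, were found for 57.5% of all tested genes in WT and 61.1% in *Txnip*-/-. *Atp2a2* fell with TN to 0.736 of its mean TPM in WT (log2 change -0.45, SE 0.10, limma adjusted p = 0.00274) and to 0.661 in *Txnip*-/- (-0.59, SE 0.10, adjusted p = 0.000410). Of all tested genes, 6.39% were called lower in WT and 8.27% in *Txnip*-/-.

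Between the genotypes *Atp2a2* was lower in each *Txnip*-/- library at both temperatures, as 7.58% of all tested genes were at RT and 13.4% at TN, but was not called. The log2 change was -0.15 at RT (95% confidence interval -0.30 to 0.01, limma adjusted p = 0.336) and -0.29 at TN (-0.54 to -0.04, adjusted p = 0.142). These moved to -0.095 without RT *Txnip*-/- replicate 1 and to -0.175 without TN WT replicate 1. The sum of the 8 brown adipocyte markers, most of which came from *Ucp1*, *Cidea*, *Cox8b* and *Cox7a1*, ran in the same order of groups, at 11340 to 11960 TPM in RT WT, 8535 to 10760 in RT *Txnip*-/-, 6692 to 7587 in TN WT and 3689 to 4305 in TN *Txnip*-/-. By mean, 3 of the 8 did not keep this order, as *Ppargc1a* and *Prdm16* were higher in RT *Txnip*-/- than in RT WT and *Cidea* was higher in TN WT than in RT *Txnip*-/-. TN WT replicate 1 had the highest *Atp2a2*, *Ckb* and *Ucp1* (1136 TPM) of the TN libraries. The part of the brown adipocyte markers in the *Atp2a2* result was not tested. Exons of *Atp2a2* overlap the unclassified transcript *Gm43361* on the opposite strand over 83 bases.

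*Atp2a2* supplied most of the SERCA transcripts in all libraries, with 94.8% to 95.4% of the summed TPM in RT WT, 86.2% to 91.6% in RT *Txnip*-/-, 87.0% to 93.2% in TN WT and 82.1% to 87.0% in TN *Txnip*-/-. *Atp2a1*, the fast muscle pump, was at 0.293 to 0.366 TPM in RT WT and 2.80 to 7.49 in RT *Txnip*-/-, in step with the muscle markers above. *Atp2a3*, a pump known from blood and endothelial cells, rose in TN *Txnip*-/- (9.81 ± 0.910 against 6.65 ± 0.978 TPM, SD, n = 3, log2 change 0.50, limma adjusted p = 0.0298).

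*Ryr2* (chr13:11553103-12106945, minus strand) encodes the ryanodine receptor known from heart muscle, through which calcium leaves the store. It was at 0.115, 0.106 and 0.189 TPM in RT WT and 0.061, 0.063 and 0.064 in RT *Txnip*-/-, and at 0.109, 0.195 and 0.125 in TN WT and 0.102, 0.067 and 0.087 in TN *Txnip*-/-. The genotypes did not overlap at either temperature, with *Txnip*-/- lower, but the values lay under the filter. Tested without the filter, the log2 changes were -0.10 at RT (limma adjusted p = 0.331) and -0.07 at TN (adjusted p = 0.429). *Ryr2* was 0.0903% to 0.375% of the summed TPM of the ER release channels, and the inositol trisphosphate receptors *Itpr1* and *Itpr2* together were 95.3% to 97.3%. *Sln* (chr9:53850251-53853849, plus strand), which encodes sarcolipin, a peptide that lets SERCA spend ATP without moving calcium, was listed at 0 in all 12 libraries.

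**Figure D4:**
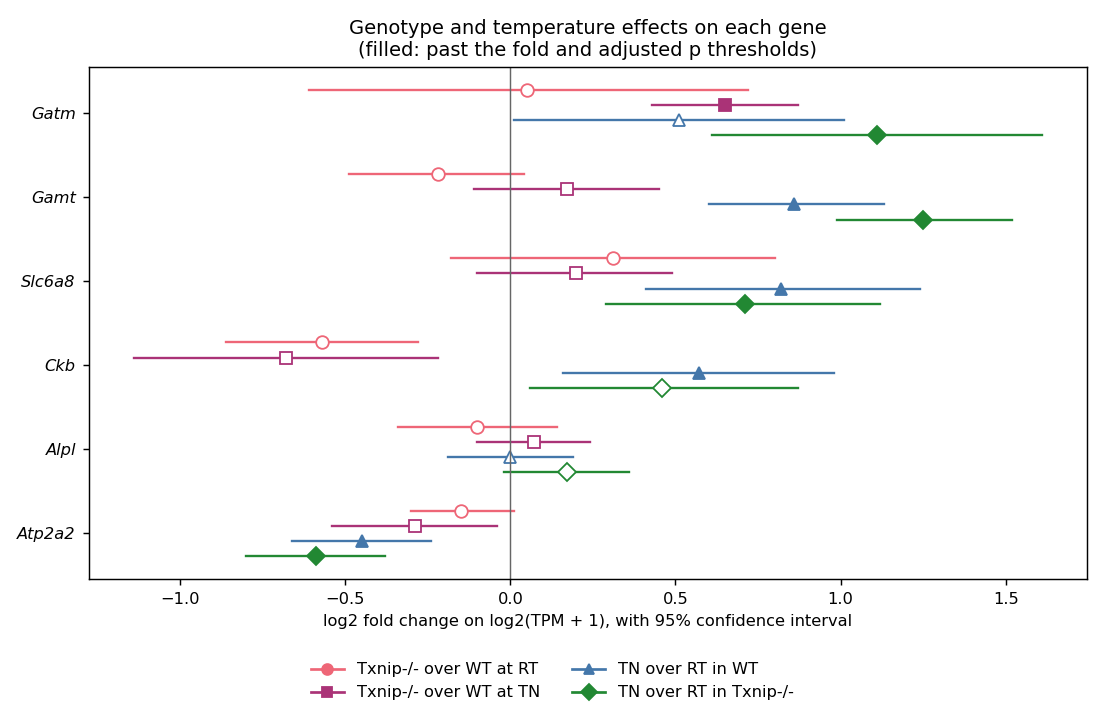
Fold change on log2(TPM + 1) (horizontal axis) of the 6 members above the filter in the genotype comparison at RT and at TN and the temperature comparison in WT and in Txnip-/-, with 95% confidence intervals as lines. Filled symbols passed the thresholds, which in the genotype comparisons is *Gatm* at TN alone, and *Atp2a2* is the member that fell with TN in both genotypes.

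The median tested gene was itself higher at TN, by a log2 change of 0.184 in WT and 0.152 in *Txnip*-/-. With each library centred on its median, in WT *Gamt* stood at 0.68, *Slc6a8* at 0.64 and *Atp2a2* at -0.63, all still called, and *Ckb* at 0.39, *Gatm* at 0.33 and *Alpl* at -0.19, not called. In *Txnip*-/- the centred values were 1.07 for *Gamt*, 0.92 for *Gatm*, 0.52 for *Slc6a8* and -0.78 for *Atp2a2*, and these 4 were still called, while *Ckb* stood at 0.27 and *Alpl* at -0.019, not called. The share of higher genes among all calls went from 83.08% to 51.13% in WT and from 78.88% to 48.51% in *Txnip*-/- with the centring.

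For the interaction of genotype and temperature, 0 of the 6 tested members were called by limma, with 0.00801% of all tested genes, which is *Txnip* alone, and 1 member, *Gamt*, had an unadjusted p under 0.05 as did 1571 of all tested genes. The genotype effects of *Alpl* and *Atp2a2* differed between the temperatures by 0.17 (95% confidence interval -0.10 to 0.44) and -0.14 (-0.44 to 0.15), and that of *Slc6a8* by -0.11 (-0.70 to 0.47), a value that turned to 0.13 without RT *Txnip*-/- replicate 1. With 1 library left out the value of *Alpl* ran from 0.094 to 0.266 (without RT *Txnip*-/- replicates 3 and 1) and that of *Atp2a2* from -0.224 to -0.029 (without TN WT replicates 3 and 1). The intervals for all 6 tested members are wide enough to hold differences as large as the genotype effects themselves.

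Beside the members, 38 other genes of these pathways were listed. Between the genotypes at RT, 2 of the 26 tested rose, *Ckm* (log2 change 2.66, SE 0.26, limma adjusted p = 0.0123) and *Atp2a1* (2.10, SE 0.26, adjusted p = 0.0209), both together with the muscle markers and both above the filter only through RT *Txnip*-/-, beside 0.760% of all tested genes called higher. At TN, 3 of the 28 tested rose and 1 fell, beside 6.49% and 2.17% of all tested genes. The 3 were *Atp2a3*, *Fkbp1b* (0.63, adjusted p = 0.0424), whose protein binds ryanodine receptors and which passed the filter through its TN *Txnip*-/- level, and *Slc8b1* (0.63, SE 0.10, adjusted p = 0.00998), the exchanger that takes calcium out of mitochondria. *Letm1*, an inner membrane protein tied to cation exchange, fell from 56.1 ± 2.12 to 37.4 ± 2.18 TPM (SD, n = 3, log2 change -0.57, adjusted p = 0.00542). The median over the listed genes was 0.03 at RT and 0.01 at TN, the same as over all tested genes.

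With temperature 12 of the 28 tested genes rose and 2 fell in WT, and 11 rose and 4 fell in *Txnip*-/-, beside 31.4% higher and 6.39% lower of all tested genes in WT and 30.9% and 8.27% in *Txnip*-/-. The medians were 0.33 and 0.25 beside 0.18 and 0.15 over all tested genes, and these values are not centred. Of the methyl donor enzymes, *Mat2a*, the catalytic subunit that makes S-adenosylmethionine, fell by 0.51 in WT and 0.59 in *Txnip*-/-, while *Mat2b*, its regulatory subunit, rose by 0.65 and 0.34. Of the store and release genes, *Itpr2*, *Fkbp1a*, *Asph*, *Casq2* and *Pln*, which encodes the SERCA inhibitor phospholamban, rose in both genotypes, *Itpr1* passed in WT and *Itpr3* in *Txnip*-/-. Of the mitochondrial genes, *Mcub*, which restrains the calcium uniporter, rose by 1.11 and 1.33 and *Slc8b1* by 0.42 and 0.68, *Micu2*, a regulatory subunit of the uniporter, passed in WT, and *Letm1* fell by 0.84 and 0.99. *Atp2b4*, a plasma membrane calcium pump, rose by 0.81 and 0.87, and *Atp2a3* rose in both. *Ckm* and *Atp2a1* fell in *Txnip*-/-, where the RT libraries held the most muscle transcripts, and passed the filter over the 12 libraries only through RT *Txnip*-/-. Likewise *Mcub* and *Pln* passed it only through the TN groups, where they were high, so that these 4 genes are not read as support for the counts. Listed at 0 in all libraries beside *Sln* was *Strit1*, whose peptide relieves the pump of its inhibitors.

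**Figure D5:**
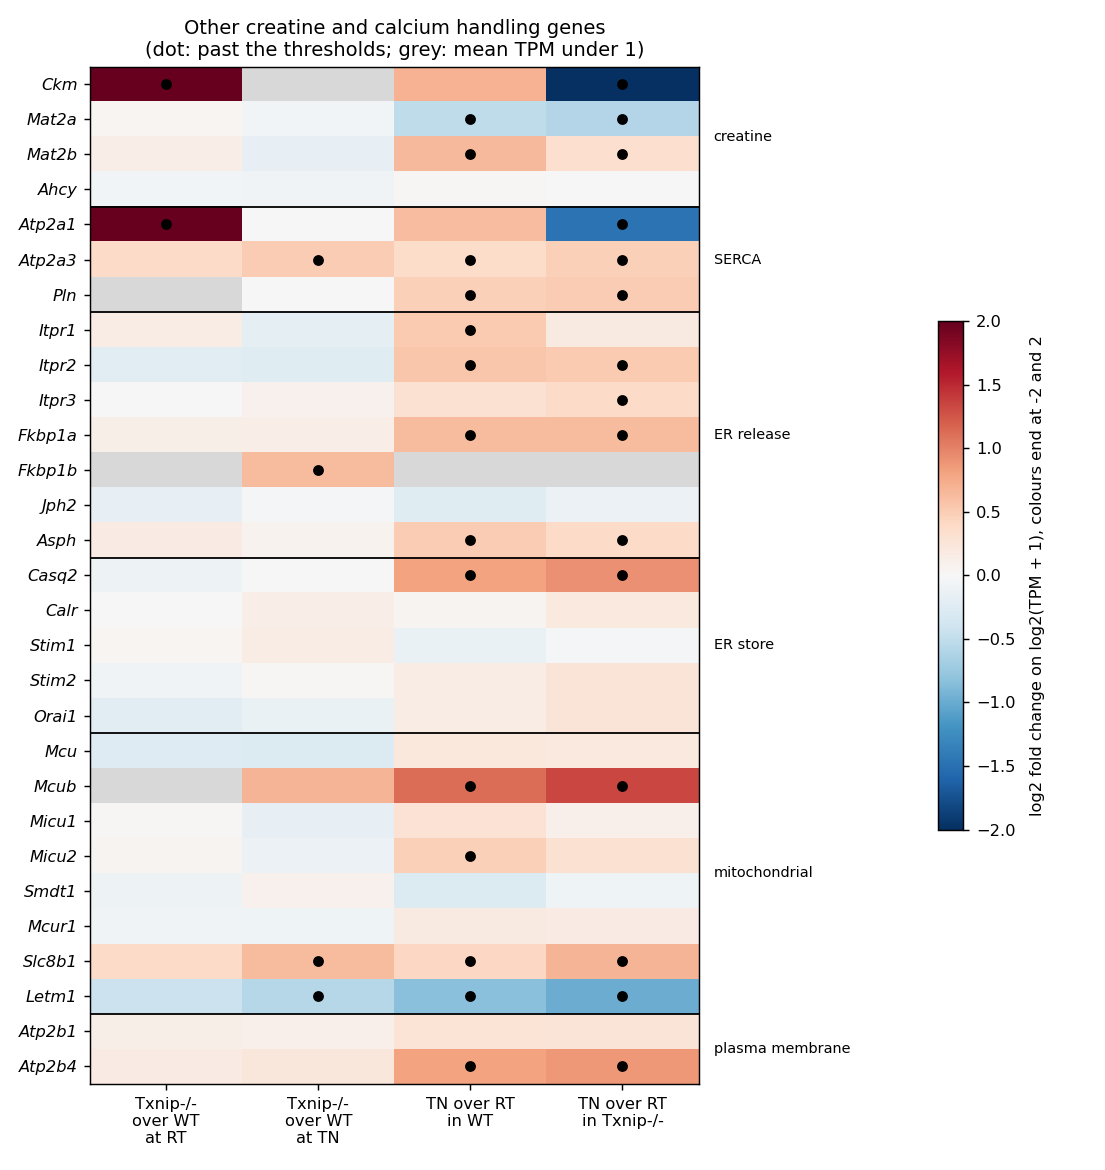
Fold change on log2(TPM + 1) as colour, ending at -2 and 2, of the other creatine and calcium handling genes with a mean of at least 1 TPM in a comparison (rows) in the 4 comparisons (columns), with a dot where a gene passed the thresholds and grey where it was under the filter. Dots are few in the genotype columns (2 at RT and 4 at TN) and more frequent in the temperature columns (14 in WT and 15 in Txnip-/-).

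The genes whose levels ran most like each member over the 12 libraries were ranked among 12485 genes by Pearson's r on log2(TPM + 1), as a description. The 12 libraries share their group differences, so the r of the deviations from the group means is given in brackets for the first gene of each. *Gatm* ran most like *Cnp* (0.975 [0.911]), *Tns3* and *Olfml3*. *Gamt* ran most like *Plau* (0.983 [0.880]), the urokinase plasminogen activator, *N4bp3* and *Nicn1*. *Slc6a8* ran most like *Klhdc7a* (0.978 [0.924]), *Tgfbr2* and *Arnt*. *Ckb* ran most like *BC037032* (0.962 [0.930]), *Kcnj11*, a subunit of ATP-sensitive potassium channels, and *Nit2*. *Alpl* had the weakest matches, *Gm20219* (0.826 [0.781]), *Rab11fip5* and *Itga3*. *Atp2a2* ran most like *Mto1* (0.977 [0.799]), *Hadhb* and *Dlst*, which encode mitochondrial proteins of tRNA modification, fatty acid oxidation and the tricarboxylic acid cycle.

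Among the members themselves, *Gatm*, *Gamt* and *Slc6a8* ran together over the 12 libraries, with r from 0.754 to 0.817 between pairs, and each ran against *Atp2a2*, with r from -0.836 to -0.815. Within groups these relations were weaker, at -0.192 to 0.496 and -0.145 to -0.024. The r of *Ckb* with *Atp2a2* was -0.136 over the 12 libraries and 0.591 within groups, where TN WT replicate 1 was high in both.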

How the data were processed

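Poly-A RNA of interscapular BAT was sequenced as single-end reads, and each library was taken as 1 mouse. The authors aligned reads to mm10 with STAR 2.7.5a and counted exons with HOMER 4.11.1, keeping 1 transcript per gene. The authors deposited TPM for 12 libraries, the values used here, and for each temperature log2-scale values of 6 libraries by a transform that is not named. The deposited log2-scale values were used only as an alternative, and for *Slc6a8* and *Atp2a2* they describe another transcript than the TPM. Fold changes and p-values from the authors' DESeq2 comparison, also deposited, were not used.

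Genes with a mean of at least 1 TPM over the libraries fitted were tested on log2(TPM + 1) with limma 3.58.1 (R 4.3.3, empirical Bayes with a trend) and Benjamini-Hochberg adjustment over all tested genes. Each genotype comparison was fitted on the 6 libraries of its temperature, and TN against RT and the interaction on 12 libraries with 4 group means. TPM give no counts, so the precision rests on the variation among 3 libraries per group. The procedure was tested on simulated data. Python 3.11.15 with matplotlib 3.10.9 made the figures.

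The members and the gene lists were chosen with earlier results of these data known, so no list is independent evidence. Named beside the members are the listed pathway genes called in any comparison, markers that were called or define a list, and the 3 genes most like each member by r. *Myl1* and the summed shares of gene families were chosen after their values were seen. The alternatives tried were a pseudocount of 0.1, no filter, upper-quartile normalization, median centring, the replicate number as a block, each library left out in turn, no minimum fold, other sets of libraries in the fit, and the authors' log-scale values. A listed marker is not reported here and was left out of its list.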

Additional observations from a re-analysis of the deposited data

How the results depend on the processing

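Of 498 recomputed values of the 6 members above the filter, 471 kept their direction and their side of the thresholds, 6 lost a call, 12 gained one and 9 turned sign. The calls of *Gamt*, *Slc6a8* and *Atp2a2* with temperature in both genotypes and of *Gatm* with temperature in *Txnip*-/- were kept under all of the 19 alternatives run for each. The calls that moved were those of *Ckb* and *Gatm*, given with their values in the report or, for the replicate block, below. With all 12 libraries in 1 fit the called member at TN was *Ckb* in place of *Gatm*. The number of called members at RT went from 0 to 1 (*Ckb*) on the authors' log-scale values. With 1 library left out it was 0 to 1 at RT, 1 to 2 at TN (2 without TN WT replicate 1 or 2), 3 to 5 for temperature in WT, 4 to 5 in *Txnip*-/- and 0 for the interaction. Signs turned only for changes that were not called, namely *Gatm* at RT (-0.128 to 0.345 with 1 library left out, at -0.057, -0.128 and -0.110 without RT WT replicate 1, RT WT replicate 3 and RT *Txnip*-/- replicate 3), *Alpl* with temperature in WT (-0.037 to 0.048, at 0.026 and 0.048 without RT WT replicate 1 and TN WT replicate 3) and in *Txnip*-/- (-0.019 with median centring), and the interaction of *Ckb* (-0.299 to 0.151, at 0.001 and 0.151 without RT WT replicate 3 and TN WT replicate 1) and of *Slc6a8* (-0.308 to 0.129, at 0.129 without RT *Txnip*-/- replicate 1). The cause was not tested.

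Counts over all tested genes moved too. At RT the 178 called genes became 44 without the filter, 272 with all 12 libraries in 1 fit, and 31, 2 and 159 without RT WT replicate 1, 2 and 3 or 33, 87 and 25 without RT *Txnip*-/- replicate 1, 2 and 3. At TN the 1116 became 621 without the filter, 703 and 684 without TN WT replicate 1 and 3, and 456 and 464 without TN *Txnip*-/- replicate 1 and 2. The interaction calls were 1 to 6 with 1 library left out. Upper-quartile normalization put the share of higher calls at 70.41% in WT and 68.79% in *Txnip*-/- for temperature.

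Same-numbered libraries deviated together in some pairs and not in others (r across genes 0.300, -0.013 and 0.216 at RT and 0.039, 0.023 and -0.029 at TN), and of the 3 WT libraries at each temperature 2 at RT and 1 at TN correlated best with the *Txnip*-/- library of their own number. The numbers were therefore not taken to pair the mice, and the replicate block was no part of the comparisons. With the replicate block *Ckb* was called at RT (-0.57, adjusted p = 0.0341), making 1 called member, and with temperature in *Txnip*-/- (0.46, adjusted p = 0.0330), making 5. It changed no other call among the members, and gave 100, 977, 4744, 4928 and 4 called genes at RT, at TN, in WT, in *Txnip*-/- and for the interaction.

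With 3 libraries per group and no counts, a member that was not called is not shown to be equal between groups.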
